A study of Mus musculus with 3 samples.

Results

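C1q-expressing macrophages of the developing mouse urogenital sinus and prostate were chosen by measured values, as the cells in which at least 2 of the genes *C1qa*, *C1qb* and *C1qc*, together with at least 1 of the leukocyte genes *Tyrobp*, *Fcer1g*, *Laptm5* and *Ptprc*, had a value above 0. Of 14573 cells, 146 met this rule. The levels of these 7 genes are therefore given below as a description and support nothing.

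The study profiled single cells by the 10x Genomics 3' method, in which each captured molecule carries a unique molecular identifier (UMI), from 3 tissues labelled normal: male urogenital sinus in the embryo at E18.5, and prostate at postnatal days 14 (P14) and 35 (P35). Each tissue gave 1 library, and the labels name neither genotype nor strain for it. The methods give a mixed C57BL/6 and 129S1/SvImJ background for the mice of the study, and how many animals went into a library is not given in the sources used here. Tissue was digested with collagenase and TrypLE before loading. All cells sat in 1 table, where cell barcodes carried an ending of 1, 2 or 3, and no label says which ending is which age, so the endings are called sets 1, 2 and 3 here and are not read as ages.

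Macrophages are phagocytes that settle in organs before birth and clear dying cells, debris and antibody-coated particles. They are a main source of C1q, the recognition unit of the classical complement pathway, which is built from A, B and C chains encoded by *C1qa*, *C1qb* and *C1qc*. Tissue macrophages are also known for scavenger, Fc and complement receptors, for lysosomal proteases, and for chemokines that draw in other leukocytes.

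Set 1 held 26 macrophages among 766 cells (3.39%, exact 95% Clopper-Pearson interval 2.23 to 4.93), set 2 held 16 among 5350 (0.299%, 0.171 to 0.485) and set 3 held 104 among 8457 (1.23%, 1.01 to 1.49). The 3 intervals did not overlap. They cover counting error only, as do all intervals below, and with 1 library per group there is no replicate and no test between sets. Depth differed widely, with median UMIs per cell of 19357, 1738 and 1788 in sets 1, 2 and 3. With every cell thinned to 900 UMIs and shallower cells left out, the shares were 3.03%, 0.2% and 0.991%, in the same order. Without the macrophages rich in markers of other cell types, which are described below, the shares were 3.27%, 0.15% (8 of 5342 cells) and 0.96%.

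The macrophages themselves had 1128 to 38885 UMIs in set 1 (median 12666.5), 908 to 11093 in set 2 (median 2570) and 618 to 20036 in set 3 (median 1980.5). In set 1 they fell apart by depth, with 11 of 26 cells under 3000 UMIs and the other 15 at 9638 or more. Their summed UMIs came to 360653, 61319 and 300689, so a count of 0 UMIs allows up to 8.32 CPM in the macrophages of set 1, 48.9 in set 2 and 9.98 in set 3, taking 3 UMIs as the floor. CPM here means how many of every 1000000 UMIs, summed over the cells of a group, belong to the gene, and because 1 UMI is 1 captured 3' end the values need no correction for transcript length. A single barcode was shared by sets 1 and 2, 13 by sets 2 and 3, and 1 macrophage was among the 28 cells concerned.

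*C1qb*, *C1qc* and *C1qa* lie side by side on the minus strand of chromosome 4 (GRCm38.p6, the build of the RefSeq gene table), at chr4:136880126-136886200, chr4:136889801-136892936 and chr4:136895916-136898844. The promoter windows of C1q genes and of 4 other genes that mark these cells are printed because the results turn on genes that were high in the same cells. Each is the 150 bases before the transcript start in RefSeq's promoter table, which for *C1qc* lies a little inside the bounds of the gene given above, read 5′ to 3′ on the strand of the gene, with capitals for the letters AGGAAG or their reverse complement CTTCCT, which hold the GGAA core read by ETS-family factors such as PU.1, the product of *Spi1*.
C1qb, chr4:136886201-136886350, minus strand: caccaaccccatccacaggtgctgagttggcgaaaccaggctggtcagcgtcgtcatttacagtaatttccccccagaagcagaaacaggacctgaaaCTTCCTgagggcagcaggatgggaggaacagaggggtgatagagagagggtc
C1qc, chr4:136892915-136893064, minus strand: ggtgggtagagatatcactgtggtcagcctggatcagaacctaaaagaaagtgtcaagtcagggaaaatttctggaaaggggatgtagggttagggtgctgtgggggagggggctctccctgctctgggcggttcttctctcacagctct
Fcer1g, chr1:171234350-171234499, minus strand: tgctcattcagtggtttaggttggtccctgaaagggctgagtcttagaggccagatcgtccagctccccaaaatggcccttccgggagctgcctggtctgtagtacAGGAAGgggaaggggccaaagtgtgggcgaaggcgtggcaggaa
Pf4, chr5:90772285-90772434, plus strand: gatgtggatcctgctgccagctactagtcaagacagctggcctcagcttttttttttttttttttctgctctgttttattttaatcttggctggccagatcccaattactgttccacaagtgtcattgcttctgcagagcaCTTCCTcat
Mrc1, chr2:14229264-14229413, plus strand: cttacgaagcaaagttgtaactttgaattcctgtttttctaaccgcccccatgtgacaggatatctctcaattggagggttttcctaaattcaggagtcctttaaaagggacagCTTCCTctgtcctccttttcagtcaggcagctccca
Fcrls, chr3:87263525-87263674, minus strand: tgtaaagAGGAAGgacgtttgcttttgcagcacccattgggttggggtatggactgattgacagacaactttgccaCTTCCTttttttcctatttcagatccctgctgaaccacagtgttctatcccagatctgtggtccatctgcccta

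Matches lay 52 to 47 bases before the start in *C1qb*, 44 to 39 in *Fcer1g*, 9 to 4 in *Pf4*, 36 to 31 in *Mrc1*, and at 143 to 138 and 74 to 69 in *Fcrls*. The window of *C1qc* held no match. These letters were searched for after the windows had been read, so the count over the 6 windows is a description only. Of all 32851 promoters in the table, 19.7% held a match on either strand in the same 150 bases, as did 21.9% of the 7315 genes with a row here and a promoter. Among the 190 genes with a promoter that stood at least 4-fold higher in the macrophages of set 3 than in its other cells, the share was 37.4%. *Pf4*, *Mrc1* and *Fcrls*, whose windows had been read before the letters were chosen, are among these genes, so this share is a description too. It was not worked out for the other sets. A match is a run of letters and not a bound site.

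As the rule requires, the C1q genes were high in the macrophages and close to absent elsewhere. *C1qa* stood at 2251 CPM in set 1, 783 in set 2 and 2677 in set 3, against 0.0496, 0.441 and 1.03 CPM in the other cells of the same sets. *C1qb* stood at 2972, 783 and 2434 CPM, and *C1qc* at 2177, 571 and 1244. The share of *C1qc* in C1q UMIs was 29.4%, 26.7% and 19.6% in sets 1, 2 and 3, which rests on 131 C1q UMIs in set 2. The summed C1q level per macrophage ran from 76.9 over a median of 8799 to 33244 CPM in set 1, from 599 over 3506 to 8445 in set 2 and from 383 over 8068 to 22941 in set 3.

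At the edge of the rule, 128 macrophages held UMIs of all 3 C1q genes and 18 of exactly 2, while 41 had all 3 C1q genes and all 4 leukocyte genes. Just outside it, 8 cells had 1 C1q gene with a leukocyte gene, 6 had at least 2 C1q genes with no leukocyte gene, and 43 had 1 C1q gene and no leukocyte gene. The leukocyte genes were *Tyrobp* (also called DAP12) and *Fcer1g* (the Fc receptor gamma chain), the signalling adaptors of activating receptors, *Laptm5*, a lysosomal membrane protein of blood cells, and *Ptprc*, which encodes CD45. *Tyrobp* stood at 1794, 391 and 1367 CPM in the macrophages of sets 1, 2 and 3, *Fcer1g* at 2412, 734 and 1344, *Laptm5* at 710, 294 and 392, and *Ptprc* at 103, 65.2 and 196.

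The label was checked against 14 macrophage genes that the rule does not read. A macrophage held UMIs of a median of 10 of them in set 1, 6 in set 2 and 7 in set 3, against medians of 1, 0 and 1 in the other cells. At least 3 of the 14 were found in 96.2%, 93.8% and 95.2% of the macrophages of sets 1, 2 and 3, and in 10.3%, 0.337% and 0.814% of the other cells. Leukocytes without C1q, described further on, held a median of 5, 3 and 1 of the 14, and at least 3 were found in 8 of 9, 2 of 3 and 23 of 70 of them. The genes *Csf1r*, *Cd68*, *Adgre1* and *Aif1*, often used to mark macrophages, were not analysed here.

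RNA of other cell types moved with the sets, and its part in the results was not tested. Summed over 55 marker genes of epithelium, fibroblasts, smooth muscle, endothelium, pericytes and glia, the median macrophage had 384 CPM in set 1, 6871 in set 2 and 560 in set 3, where the median other cell had 10052, 17253 and 14296. In set 1, 25 of 26 macrophages lay below the 10th percentile of the other cells of their set, in set 2 only 8 of 16 did, and in set 3 it was 81 of 104. Macrophages that lay below that mark are called low-marker macrophages hereafter. The 18 macrophages with exactly 2 C1q genes had a median of 7535 CPM of these markers, against 539 for the 128 with all 3.

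**Figure D1:**
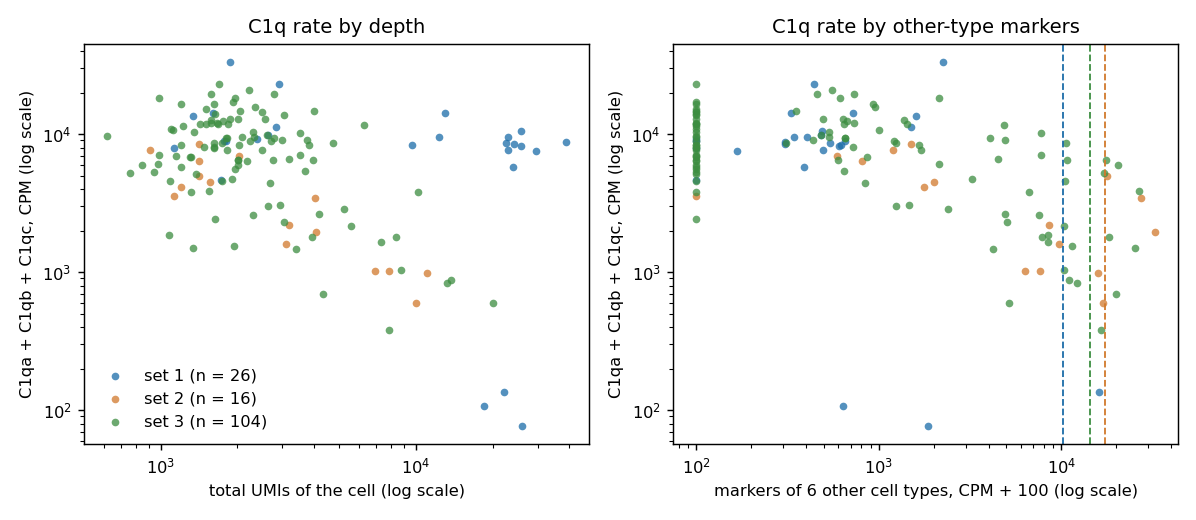
Summed C1q level (CPM, log scale) of each of the 146 macrophages against its total UMIs (left, log scale) and against the summed level of 55 markers of 6 other cell types (right, CPM plus 100, log scale). Colours give sets 1, 2 and 3, and dashed lines give the median of the other cells of each set: 10052, 17253 and 14296 CPM. In set 3 *C1qa* stood at 3585 CPM in the 81 low-marker macrophages and 1132 in the other 23, and 3 macrophages of set 1 stood apart at 76.9, 108 and 135 CPM of C1q.

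The named members of these marker lists show the same by gene. The epithelial genes *Sfn* (stratifin) and *Cldn4* (claudin 4, a tight junction protein) had 0 and 1 UMIs in the macrophages of set 1, where other cells stood at 726 and 618 CPM. In set 2 *Sfn* stood at 2202 CPM in macrophages and 1606 in other cells, and in set 3 at 981 and 1863. The smooth muscle genes *Actg2* (gamma actin) and *Des* (desmin) stood at 946 and 815 CPM in the macrophages of set 2, next to 889 and 1053 in its other cells. In the 8 low-marker macrophages of set 2 they had 1 and 0 UMIs, and the 8 other macrophages held the remaining 57 and 50. Collagen and decorin genes of fibroblasts were below the other cells in every set, with *Col3a1* at 244, 179 and 306 CPM in macrophages and 2256, 1533 and 841 in other cells. Of the smooth muscle list, 4 of 6 genes were at least 4-fold lower in the macrophages than in the other cells of set 1, 0 of 6 in set 2 and 3 of 6 in set 3. Markers of B cells (3 of 3 with a row) had 0 UMIs in the macrophages of all sets, and the T cell kinase gene *Lck* had 0, 0 and 1.

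A gene was counted as higher when its rate in macrophages was at least 4-fold that in the other cells of the set and it had at least 5 UMIs in macrophages, with counts under 3 UMIs raised to 3. By this rule 371 of 8493 genes tested were higher in set 1 (4.37%), 83 of 7577 in set 2 (1.10%) and 240 of 8187 in set 3 (2.93%). At least 4-fold lower were 499 of 2538 genes in set 1 (19.7%), 6 of 420 in set 2 (1.43%) and 63 of 1817 in set 3 (3.47%). The median log2 ratio over all genes tested was 0.22, 1.90 and 0.49. The value of set 2 is far above 0 because most of its genes had under 3 UMIs in 16 cells and were raised to 3, so medians are given below for sets 1 and 3 only. The percentages above are the background for each count of a gene list. They are shares of the genes tested, while list counts against other cells are out of the genes with a row. In set 2 the tested genes were 6 of 8 complement genes, 6 of 11 scavenger receptors and 4 of 20 lectins and paired receptors. They were also 16 of 25 oxidase and signalling genes, 14 of 21 sensors and 12 of 17 interferon and antigen genes.

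Fc receptors bind antibody, and macrophages of sets 1 and 3 had UMIs of all 6 with a row. In set 2, 3 of the 6 had 0 UMIs in macrophages. All 6 with a row were higher in set 1, 5 in set 3 and 2 in set 2, with a median log2 ratio of 7.32 in set 1 and 7.71 in set 3. *Fcrls*, an Fc receptor-like scavenger gene known from microglia, stood at 746 CPM in set 1 (95% interval 659 to 841), 163 in set 2 (78.2 to 300) and 156 in set 3 (115 to 208). The other cells of sets 1, 2 and 3 had 0.0993, 0 and 0.184 CPM of it. *Fcgr3*, a low-affinity IgG receptor that signals through *Fcer1g*, stood at 527, 81.5 and 156 CPM, and *Fcgr1*, the high-affinity receptor, at 297, 0 and 126. The inhibitory receptor *Fcgr2b* had 52.7, 0 and 66.5 CPM. Only 3 of the 6 genes had enough UMIs to be tested in set 2.

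Of the complement receptors and other complement genes, 6 of 8 were higher in set 1, 2 in set 2 and 6 in set 3, with medians of 5.44 in set 1 and 5.43 in set 3. In sets 1 and 3 a single gene of this list was at least 4-fold lower. *C5ar1* and *C3ar1*, the receptors for the anaphylatoxins C5a and C3a, stood at 474 and 452 CPM in set 1, 261 and 147 in set 2, and 306 and 229 in set 3. In low-marker macrophages *C5ar1* stood at 505, 604 (290 to 1110) and 391 CPM, so set 2 was no longer the lowest. Their rates in other cells were between 0.147 and 2.33 CPM in all sets, and in set 3 the log2 ratios were 11.02 and 9.43. Properdin (*Cfp*), which stabilises the alternative pathway convertase, had 122, 32.6 and 73.2 CPM. *Cr1l*, a membrane regulator found on many cells, was near the other cells, at 61.0, 32.6 and 56.5 CPM against 30.3, 44.0 and 49.4.

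Among scavenger and resident macrophage receptors, 6 of 11 genes were higher in set 1, 2 in set 2 and 6 in set 3, with medians of 7.13 and 6.02 in sets 1 and 3. *Mrc1*, the mannose receptor CD206, was carried by macrophages of all sets: 419 CPM (355 to 491) in set 1, 408 (264 to 602) in set 2 and 289 (232 to 357) in set 3. The log2 ratio of set 1 over set 3 was 0.53 (0.14 to 0.93). In low-marker macrophages alone it was 0.18, from 443 CPM (375 to 520) in set 1 and 391 (307 to 491) in set 3, and these intervals overlapped. Within set 1 *Mrc1* stood at 1181 CPM in the 11 macrophages under 3000 UMIs and 369 in the 15 deep ones. *Cd36*, a receptor for oxidised lipids, ran the other way, with 103 CPM in set 1, 342 in set 2 and 289 in set 3. *Lyve1*, a hyaluronan receptor of lymphatic vessels and of some resident macrophages, stood at 175 CPM in set 1 and 26.6 in set 3, carried by 8 of 26 and 4 of 104 cells. In set 2 *Lyve1* had 3 UMIs in 2 of 16 cells (48.9 CPM). *Folr2*, the folate receptor beta of resident macrophages, stood at 69.3, 81.5 and 126 CPM. The haemoglobin scavenger *Cd163* had 7 UMIs in 3 cells of set 3 and none in sets 1 and 2.

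The lectins and paired receptors, which tune activation through ITAM and ITIM signals, gave 16 of 20 genes higher in set 1, 3 in set 2 and 15 in set 3. Only 18, 4 and 16 of the 20 had enough UMIs to be tested in sets 1, 2 and 3. The list's median log2 ratio was 6.87 in set 1 and 8.37 in set 3. *Lilrb4a*, an inhibitory receptor, stood at 305, 310 and 316 CPM in sets 1, 2 and 3, and its close paralog *Lilr4b* at 38.8, 97.8 and 150. Reads of this pair may have been assigned to either gene, which was not examined. *Sirpa*, which reads the CD47 signal on healthy cells, stood at 283, 130 and 89.8 CPM. *Clec4a2* (191, 65.2 and 153 CPM) and *Clec4e*, the receptor Mincle (122, 228 and 153 CPM), are C-type lectins of myeloid cells. *Clec4e* was concentrated, since 43.5% of its UMIs in set 3 and 57.1% in set 2 came from 1 cell.

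Lysosomal genes digest what macrophages take up. Of 15 genes, 10 were higher in set 1, 5 in set 2 and 7 in set 3, and a single gene was at least 4-fold lower, in set 1. Summed they came to 12694, 5724 and 11680 CPM against 2195, 2425 and 2704 in other cells. *Cst3* (cystatin C, a secreted protease inhibitor) stood at 2179, 1712 and 4347 CPM and *Ctss* (cathepsin S, a protease of antigen processing) at 1336, 391 and 981. In low-marker macrophages *Ctss* was at 1424, 1328 and 1304 CPM, so the low value of set 2 was not seen there. *Lyz2*, the lysozyme of myeloid cells, stood at 2113 CPM in set 1, 294 in set 2 and 2278 in set 3. In set 1, 42.9% of these *Lyz2* UMIs lay in 1 cell, and without it the rate was 1272. With members required to hold all 3 C1q genes and at least 2 leukocyte genes, the log2 ratio of *Lyz2* over other cells in set 1 fell to 4.03 from 5.88, and that of set 1 over set 3 went from -0.11 to -2.08. Its gene sequence is close to that of *Lyz1*, which is not analysed here, so reads of the pair may have been assigned to either. *Ctsd* (cathepsin D) stood at 1481 CPM in set 1, 277 in set 2 and 223 in set 3, and only in set 1 did it lie 4-fold above the other cells, which had 156, 144 and 194. *Ctsc* (cathepsin C, which activates serine proteases) stood at 1198, 342 and 392 CPM.

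Among lipid handling genes *Apoe*, which carries cholesterol out of the cell, had the highest rate. It stood at 12871 CPM in set 1 (12503 to 13247), 3539 in set 2 (3084 to 4042) and 10835 in set 3 (10466 to 11214). In low-marker macrophages *Apoe* was at 13652 (13262 to 14052), 5796 and 14129 CPM (13599 to 14675), and the intervals of sets 1 and 3 overlapped. Per cell the level ran from 9.47 over a median of 139 to 493 UMIs per 10000 in set 1, from 0 over 35.4 to 169 in set 2 and from 0 over 109 to 699 in set 3. The other cells had 164, 354 and 1175 CPM, giving log2 ratios of 6.30, 3.32 and 3.20. Of the 12 genes of the list, 7, 2 and 6 were higher, with medians of 2.70 in set 1 and 1.79 in set 3. A single gene of the list was at least 4-fold lower, in set 1. *Plin2*, a lipid droplet coat protein, was at 596 CPM in set 1 against 48.9 and 53.2 in sets 2 and 3, with 40.5% of the set 1 UMIs in 1 cell and 387 CPM without it. *Alox5ap*, which serves leukotriene synthesis, had 360, 16.3 and 150 CPM, and *Hpgds*, a prostaglandin D synthase also known from mast cells, had 186, 196 and 170.

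Oxidase and haematopoietic signalling genes gave 19, 6 and 13 of 25 higher, with medians of 5.98 and 4.76 in sets 1 and 3. *Cybb*, the catalytic subunit of the phagocyte NADPH oxidase, stood at 275, 114 and 299 CPM, against 1.14, 0.315 and 0.737 in other cells. *Srgn* (serglycin, a granule proteoglycan) stood at 957, 652 and 1277 CPM, and at 1016, 1328 and 1610 in the low-marker macrophages. *Coro1a* (coronin, an actin regulator of leukocytes) stood at 901, 65.2 and 150 CPM. The most abundant transcript of the list, *Tmsb4x* (thymosin beta 4, which binds actin), stood at 29674, 10454 and 15940 CPM but was high in other cells too, so its log2 ratios were 2.44, 0.72 and 1.61.

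Among transcription factors, the myeloid *Spi1* was the most selective of those named. *Spi1*, which encodes PU.1, stood at 591 CPM in set 1 (514 to 675), 228 in set 2 (125 to 383) and 535 in set 3 (456 to 625), and at 3.67, 0.315 and 1.58 CPM in other cells. *Maf* stood at 230, 65.2 and 96.4 CPM and *Zeb2*, which helps to keep macrophage identity, at 322, 473 and 565. *Klf4* and *Id3*, also broadly used outside leukocytes, were at or below the level of other cells in every set, with log2 ratios of -2.42, -0.02 and -0.55 for *Klf4*. Of 10 factors with a row, 5, 2 and 3 were higher, and the medians were 2.12 and 1.71 in sets 1 and 3. A single factor was at least 4-fold lower, in set 1.

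**Figure D2:**
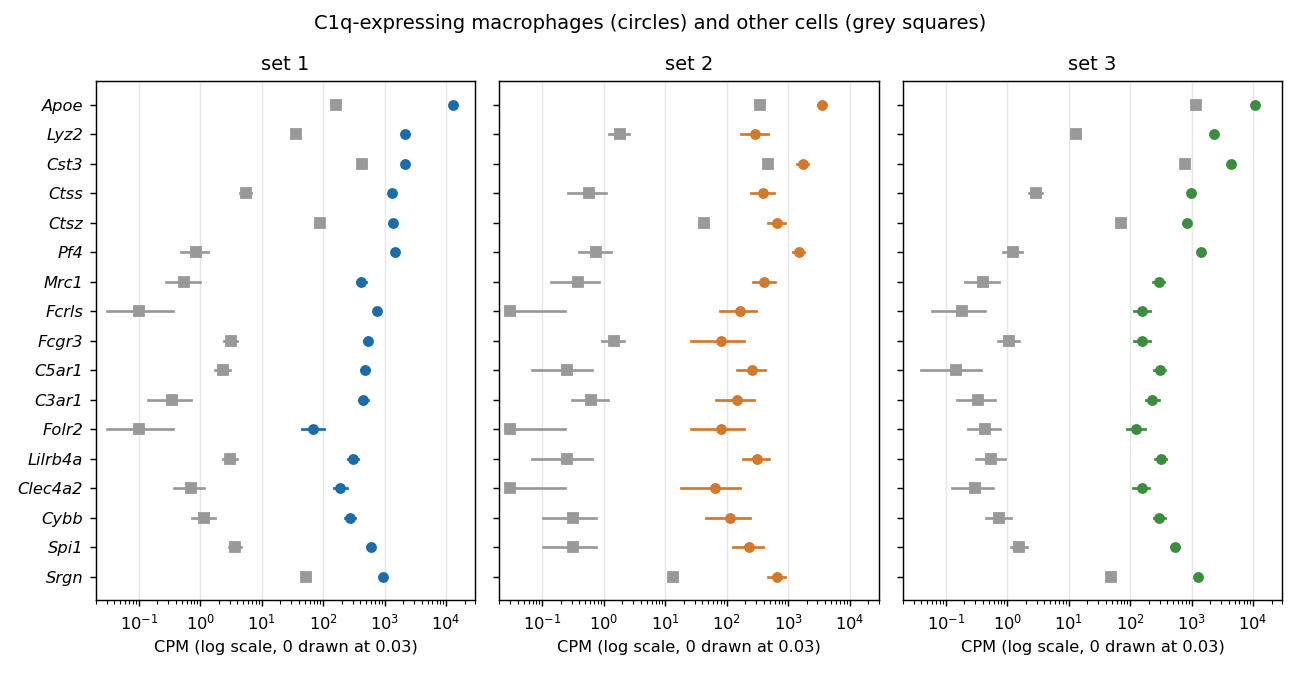
Rate of 17 genes in macrophages (coloured circles) and in the other cells of the same set (grey squares), in CPM on a log scale with 0 drawn at 0.03. Bars are exact Poisson 95% intervals. *Apoe*, *Ctss*, *Pf4* and *Spi1* lie above the other cells in all 3 sets.

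Among chemokines, *Cxcl2* and *Cxcl1* had their highest rates in set 3. *Cxcl2*, which attracts neutrophils, stood at 11597 CPM in set 3 (11215 to 11988), 3262 in set 2 (2825 to 3746) and 943 in set 1 (845 to 1048). The other cells had 41.0, 104 and 54.1 CPM of it. Per 10000 UMIs, macrophages of set 3 had from 0 over a median of 97.8 to 538, those of set 2 from 3.15 over 39.2 to 132, and those of set 1 from 0 over 0 to 50.3. All 16 macrophages of set 2, 93 of 104 in set 3 and 12 of 26 in set 1 had at least 1 UMI. After thinning every cell to 900 UMIs the shares with *Cxcl2* were 26.9% in set 1 (11.6 to 47.8), 68.8% in set 2 (41.3 to 89.0) and 88.1% in set 3 (80.2 to 93.7). With *Cxcl2* thinned to 1200 UMIs they were 20%, 85.7% and 88%, so the shares of sets 2 and 3 were then close. Other cells, thinned alike, had 2.32%, 4.85% and 1.64%.

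*Cxcl1* and *Cxcl3*, its neighbours on chromosome 5, also attract neutrophils. *Cxcl1* stood at 52.7, 750 and 3146 CPM in sets 1, 2 and 3, and *Cxcl3* at 47.1, 1011 and 948. *Cxcl10*, an interferon-induced chemokine for T cells, stood at 105, 766 and 964 CPM, but other cells carried it as well, at 133, 186 and 313. In the low-marker macrophages alone, *Cxcl2* was at 996, 5011 and 15723 CPM in sets 1, 2 and 3, and *Cxcl1* at 53.2, 966 and 4245, so the order of the sets was the same for both genes. *Cxcl3* was then at 50.2, 2294 and 1341 CPM and *Cxcl10* at 106, 1630 and 1024, with set 2 above set 3. Within set 1 the 15 deep macrophages had 1001 CPM of *Cxcl2* and the 11 under 3000 UMIs had 1 UMI in all.

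*Il1b*, which encodes the inflammatory cytokine interleukin 1 beta, was carried by a part of the macrophages only. In set 3 43 of 104 cells had it, at 2162 CPM overall (1999 to 2334). In set 1 5 of 26 cells had it, and 78.2% of its UMIs lay in 1 cell, so that the rate of 1054 CPM fell to 248 without that cell. In set 2 it had 1 UMI. *Gdf15*, a stress-induced cytokine, stood at 795 CPM in set 3 in 40 cells, at 27.7 in set 1 and had 0 UMIs in set 2.

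*Pf4* (platelet factor 4, CXCL4), a platelet chemokine that many resident macrophages also carry, had close rates when all macrophages were summed: 1481 CPM in set 1 (1358 to 1612), 1484 in set 2 (1195 to 1822) and 1403 in set 3 (1273 to 1544). The log2 ratio of set 1 over set 3 was 0.08 (-0.11 to 0.26) and that of set 2 over set 3 was 0.08 (-0.26 to 0.41). In low-marker macrophages alone the rates were 1575, 2053 and 2075 CPM, and the ratio of set 1 over set 3 was -0.40. Within set 1 *Pf4* stood at 3724 CPM in the 11 shallow macrophages and 1335 in the 15 deep ones. Other cells had 0.844, 0.756 and 1.22 CPM. The platelet gene *Ppbp* had 5, 0 and 9 UMIs in the macrophages, all 9 in 1 cell. Across the list of 21 chemokines, cytokines and growth factors, 8 were higher in set 1, 8 in set 2 and 10 in set 3. At least 4-fold lower were 2 in set 1, 1 in set 2 and 0 in set 3. The median log2 ratio was 1.70 in set 1 and 1.67 in set 3. The growth factor *Igf1* was not above the other cells: it stood at 130, 32.6 and 59.9 CPM against 129, 46.8 and 86.9 in other cells.

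**Figure D3:**
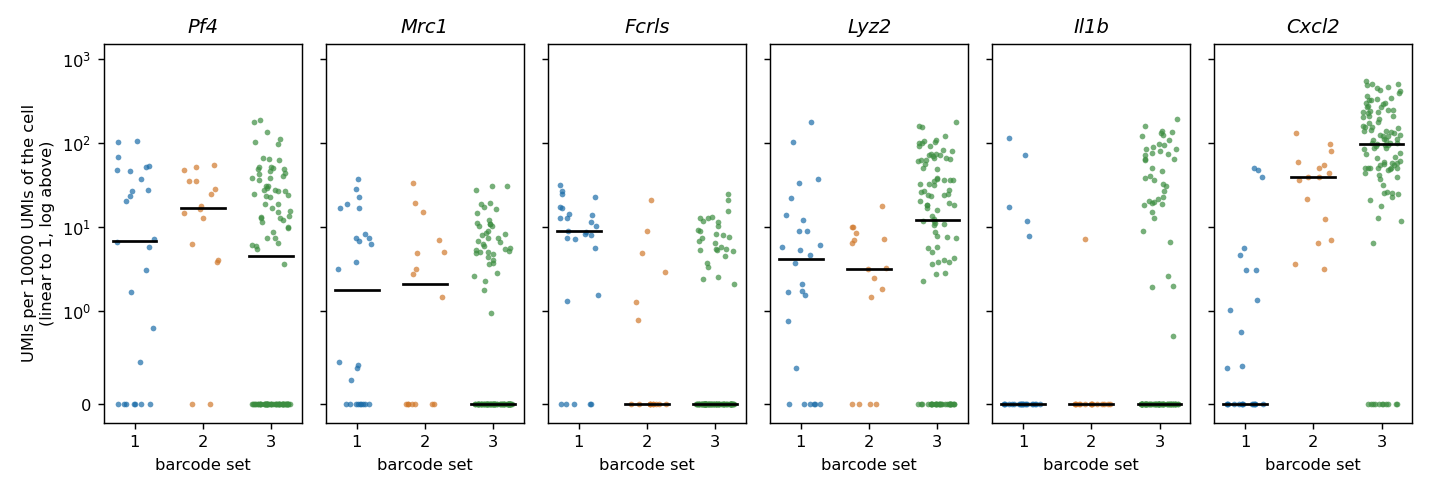
Level of 6 genes in each macrophage, as UMIs per 10000 UMIs of the cell (linear to 1, log above), by barcode set. Each point is 1 cell with horizontal jitter and bars are medians. *Pf4* has medians of 6.80, 16.9 and 4.53 in sets 1, 2 and 3, *Fcrls* has a median of 8.80 in set 1 and 0 in the others, and *Cxcl2* has medians of 0, 39.2 and 97.8.

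Within set 3, *Pf4* and *Il1b* tended to fall in different cells. Both were found in 10 macrophages, *Pf4* alone in 43, *Il1b* alone in 33 and neither in 18. *Il1b* stood at 706 CPM in macrophages with *Pf4* and at 3173 in those without. Other genes went with *Pf4*. It was present in 27 of the 29 macrophages with *Fcrls*, in 17 of the 18 with *Folr2* and in 27 of the 34 with *Spic*, next to 53 of all 104. *Mrc1* stood at 600 CPM with *Pf4* and 73.3 without. *Il1b* itself differed less by *Mrc1*, at 1926 CPM in macrophages with *Mrc1* and 2318 in those without, and 12 macrophages had both. *Cd72*, a coreceptor of B cells and some macrophages, was on the other side, and *Il1b* stood at 4876 CPM in the macrophages with it and at 1481 in those without. *Cxcl2* was common to both sides, in 51 of 53 macrophages with *Pf4* and in 42 of 51 without. These splits come from sparse counts in cells of different depth and are given as a description.

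Sensors of danger signals gave 13 of 21 genes higher in set 1, 3 in set 2 and 8 in set 3, with medians of 4.22 and 2.93 in sets 1 and 3. *Tlr2*, which reads bacterial lipoproteins, stood at 333, 97.8 and 210 CPM, and the UDP receptor *P2ry6* at 266, 81.5 and 170. *Ptafr*, the receptor for platelet-activating factor, had 202, 97.8 and 193 CPM. *Plaur*, the urokinase receptor, was as high in other cells as in macrophages, with log2 ratios of -0.25, 0.21 and 0.09.

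Interferon and antigen genes gave 9 of 17 higher in set 1, 3 in set 2 and 1 in set 3, with medians of 3.10 and 0.98 in sets 1 and 3. *B2m*, the light chain of MHC class I, stood at 840, 734 and 1566 CPM in macrophages against 99.0, 233 and 551 in other cells. The DNA sensor gene *Ifi204* was the most selective of those named, at 94.3, 81.5 and 113 CPM against 2.18, 2.27 and 11.8. *Isg15*, a ubiquitin-like interferon product, stood at 16.6 CPM in set 1, 147 in set 2 and 402 in set 3, and at 9.18, 12.9 and 130 in other cells. *Ifitm3* was below the other cells in set 3, at 1031 against 1868 CPM.

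Early response genes, which tissue digestion can induce, gave 1 of 13 genes higher in set 1, 0 in set 2 and 2 in set 3. At least 4-fold lower were 2 genes in set 1, 0 in set 2 and 0 in set 3. The medians were -0.60 and 0.34 in sets 1 and 3. Summed, they came to 5041, 3441 and 5743 CPM in macrophages and 7007, 3266 and 4954 in other cells. *Jun* stood at 1714, 277 and 416 CPM against 2605, 466 and 731, below the other cells in all sets. *Atf3* stood at 826, 473 and 742 CPM, near the 652, 260 and 561 of other cells. Their part in the chemokine levels was not tested.

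Proliferation genes were found in more macrophages of set 1. At least 3 of 10 genes of mitosis were found in 8 of 26 macrophages in set 1 (30.8%), 1 of 16 in set 2 (6.25%) and 3 of 104 in set 3 (2.88%), next to 24.7%, 4.22% and 3.11% of the other cells. None of 15 proliferation genes was called 4-fold higher or lower than in other cells in any set, and the medians were 0.65 in set 1 and 0.07 in set 3. A lower call needed 12 expected UMIs in macrophages. In set 2 the 15 genes summed to only 660 CPM in other cells, so most of them could not be called lower there. Set 1 was also the deepest set, and the part of depth in the shares with mitosis genes was not tested. *Mki67*, the proliferation antigen Ki-67, stood at 94.3, 32.6 and 46.6 CPM, and *Ube2c*, a mitotic ubiquitin carrier, at 238, 65.2 and 23.3. In set 1, 66.3% of the *Ube2c* UMIs and 55.9% of the *Mki67* UMIs lay in 1 cell each. All 8 macrophages of set 1 with at least 3 of the mitosis genes had 13013 UMIs or more.

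Compared gene by gene, the macrophages of set 1 stood at least 4-fold above those of set 3 for 189 of 3545 genes tested (5.33%) and at least 4-fold below for 215 (6.06%). This comparison was added after the data had been seen, and the median log2 ratio over all genes tested was 0.30. Epithelial markers made up 9 of the genes below, of 15 on their list, and smooth muscle markers 4 of 6. With low-marker macrophages alone the genes 4-fold apart fell from 404 to 244, of which 191 were among the 404.

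A few single genes high in set 1 were looked at after their values were seen. *P2ry12*, a nucleotide receptor known from microglia, had 38 UMIs in 9 of 26 macrophages of set 1 (105 CPM, 74.6 to 145), 0 in set 2 and 1 in set 3. *Tmem119* stood at 153 CPM in set 1 (115 to 199) and 3.33 in set 3, but the other cells of set 1 carried it at 44.0. *Crybb1*, a crystallin gene of immature microglia, had 48 UMIs in 10 macrophages of set 1 and none in sets 2 and 3. *Lyve1* and *P2ry12* were found together in 2 macrophages, *Lyve1* alone in 6 and *P2ry12* alone in 7. All 38 UMIs of *P2ry12* came from the 15 deep macrophages, while *Crybb1* stood at 182 CPM in the 11 shallow and 130 in the 15 deep ones. *Fcrls* was higher in set 1 than in set 3 by 2.25 on the log2 scale (1.80 to 2.73), and its median per cell was 8.80 UMIs per 10000 against 0. In low-marker macrophages alone *Fcrls* stood at 795 and 227 CPM, a log2 ratio of 1.81, which is under 4-fold. Within set 1 it stood at 1453 CPM in the 11 macrophages under 3000 UMIs and 700 in the 15 deep ones.

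Single cells decided other differences between these sets. *S100a8*, a neutrophil and monocyte gene, had 144 UMIs in the macrophages of set 1, of which 143 lay in 1 cell of 26014 UMIs. That cell also held 263 UMIs of *Lyz2*, 59 of *Plin2* and 22 of *Gpnmb*, but only 1 of *C1qa* and 1 of *C1qb*. A second cell, of 18538 UMIs, had 327 UMIs of *Lyz2* and 30 of *Gpnmb*, also with 1 each of *C1qa* and *C1qb*. The cells are members by the rule on 2 C1q UMIs each, next to 62 C1q UMIs in a cell of 1865 UMIs. Another cell, of 22176 UMIs, had 109 UMIs of the collagen gene *Col1a2*, 83 of *Dcn*, 15 of the reporter transcript listed as *EGFP* and 3 of C1q. *EGFP*, which *Osr1*-Cre switches on in the reporter mice of the study, had 1 further UMI in the macrophages of set 1, against 599 CPM in its other cells, and was not found in any cell of sets 2 and 3.

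**Figure D4:**
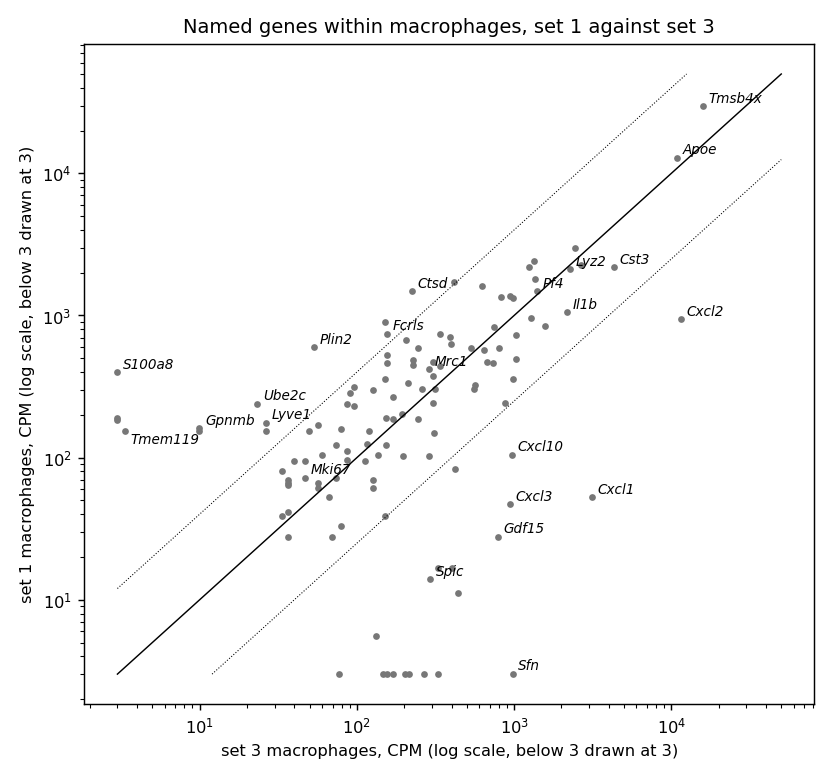
Rate of each named gene in the macrophages of set 1 (vertical axis) against set 3 (horizontal axis), in CPM on log scales with rates under 3 drawn at 3. The full line marks equal rates and dotted lines 4-fold differences. *Pf4* (1481 and 1403 CPM) lies near the full line, *Cxcl1*, *Cxcl2*, *Gdf15* and *Spic* lie far to the set 3 side, and *Plin2*, *Lyve1* and *Tmem119* to the set 1 side.

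Between sets 2 and 3, which have similar depth, 73 of 2402 genes were at least 4-fold higher in the macrophages of set 2 (3.04%) and 18 at least 4-fold lower (0.749%). The median over all genes tested was 0.37. Smooth muscle genes were in the first group: *Des* stood at 815 CPM in set 2 and 46.6 in set 3, *Actg2* at 946 and 76.5 and *Myl9* at 2120 and 329. The other cells of set 2 were also above those of set 3 for these genes, with log2 ratios of 1.53, 1.43 and 0.83 against 4.13, 3.63 and 2.69 in macrophages. With low-marker macrophages alone *Des* and *Myl9* had 0 UMIs in set 2 and *Actg2* had 1. Of 6 smooth muscle genes 4 were higher in set 2, and only 29 genes were 4-fold apart without the marker-rich macrophages, 8 of them among the first 91. *Penk* (proenkephalin) stood at 342 against 36.6 CPM, the actin crosslinker gene *Flnc* had 15 UMIs in set 2 (245 CPM) and 6 in set 3, and *Fgfbp1*, a carrier of fibroblast growth factors, had 19 (310 CPM) and 6. In the low-marker macrophages of set 2 these genes had 0, 0 and 2 UMIs.

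On the other side stood *Il1b*, *Gdf15*, *Cd52*, a small surface glycoprotein of leukocytes (81.5 against 639 CPM, and 302 against 813 in low-marker macrophages, which is under 4-fold), and *Lyz2* (294 against 2278 CPM, log2 ratio -2.96, interval -3.72 to -2.28). *Lyz2* was lower in set 2 also in low-marker macrophages, at 543 CPM (248 to 1032) against 3110 (2864 to 3371), and it was lower in the other cells of set 2 too, by 2.86 on the log2 scale. *Gm8730*, which resembles a ribosomal protein gene, and *Arf5*, a small GTPase of vesicle traffic, had 2 UMIs each in the macrophages of set 2 (32.6 CPM) and stood at 622 and 303 CPM in set 3. Other cells had 81.8 and 61.2 CPM of them in set 2 and 865 and 325 in set 3, so these genes were lower in set 2 outside macrophages too. *Spic*, a relative of PU.1 that drives the red pulp macrophages of the spleen, had 88 UMIs in 34 macrophages of set 3 (293 CPM, 235 to 361), 5 UMIs in set 1 and 0 in set 2. Age, tissue, library and any difference in genotype, which the labels do not name, cannot be told apart as sources of any difference between sets.

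Leukocytes without C1q, the nearest other cells, were those with UMIs of at least 2 of the 4 leukocyte genes and none of C1q, and numbered 9, 3 and 70 in sets 1, 2 and 3. Only set 3 had enough of them to compare alone. There, 112 of 2695 genes were at least 4-fold higher in macrophages (4.16%) and 100 at least 4-fold lower (3.71%). The median over all genes tested was 0.22. Summed over the 3 sets, 130 of 4193 genes were higher (3.10%) and 129 lower (3.08%). In that sum, 3 of 4 neutrophil markers tested were lower in macrophages (309 against 8153 CPM summed). So were 3 of 3 T and NK cell markers and 1 of 1 B cell markers. Markers of other cell types moved with the comparison within set 3, and their part was not tested. There, 5 of 11 epithelial markers tested were higher in macrophages (2265 against 691 CPM summed), as were 1 of 8 fibroblast, 1 of 5 smooth muscle and 1 of 1 pericyte markers. With low-marker macrophages alone 113 genes were higher, of which 76 were among the 112.

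The genes higher in macrophages included chemokines and lipid genes. *Cxcl2* stood at 11597 CPM in the macrophages and 251 in the leukocytes without C1q, a log2 ratio of 5.53 (5.08 to 6.02). *Apoe* stood at 10835 and 496 CPM, a log2 ratio of 4.45 (4.13 to 4.79). *Pf4*, *Cxcl3* and *Gdf15* had 0 UMIs in the leukocytes without C1q, which puts their log2 ratios at 6.22, 5.65 and 5.40 or more when 3 UMIs are set as the floor. The cholesterol exporter *Abca1* stood at 253 CPM against 18.8. *Mrc1* and *Spic* each had 3 UMIs in the leukocytes without C1q, at 18.8 CPM, against 289 and 293 CPM in macrophages.

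Some other named genes were close in both groups or lower in macrophages, while *Cxcl1* and *C5ar1* were higher in macrophages. *Il1b* was close, at 2162 and 1532 CPM, as were *Lyz2*, at 2278 and 1821, and *B2m*, at 1566 and 1425. *Cst3* stood at 17925 CPM in the leukocytes without C1q and 4347 in macrophages, a log2 ratio of -2.04 (-2.14 to -1.95). *Coro1a*, *Cd52* and *Srgn* were lower in macrophages by 1.87, 1.34 and 1.10 on the log2 scale, and *Ifngr1*, the interferon gamma receptor, by 3.04. *Lck* was found in 10 of the 70 leukocytes without C1q and in 1 of 104 macrophages. Of the chemokine list 8 of 15 genes tested were at least 4-fold higher in macrophages and 1 lower, with a median of 2.14, and of the oxidase and signalling list 1 of 19 was higher and 2 were lower, with a median of -0.92. The lipid list gave 4 of 10 higher and 0 lower, the transcription factors 3 of 7 and 0, the Fc receptors 2 of 6 and 0, the complement genes 2 of 6 and 0, and the lectins and paired receptors 5 of 15 and 1. The scavenger receptors gave 3 of 8 and 0, the early response genes 1 of 12 and 0, and the interferon and antigen genes 1 of 10 and 0. The proliferation genes gave 0 of 7 and 1 in set 3, with a median of -1.24. Summed over all sets they went the other way, with 4 of 14 higher, 0 lower and a median of 0.92. The sensors and cytokine receptors gave 2 of 15 higher and 3 lower, with a median of -0.02. The lysosome list gave 2 of 12 higher and 1 lower, with a median of 1.18. Its summed rate was 11680 CPM in macrophages and 22295 in the leukocytes without C1q, of which *Cst3* alone made up 4347 and 17925.

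**Figure D5:**
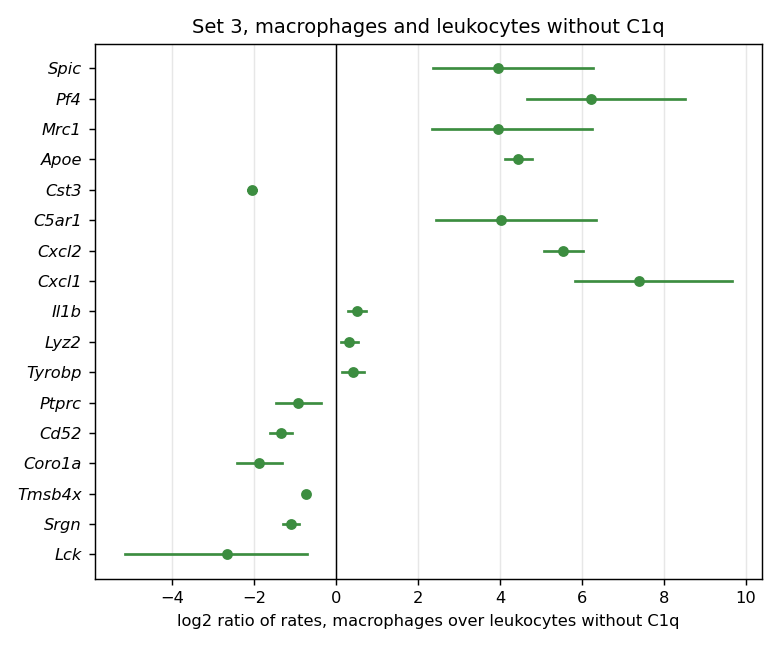
Log2 ratio of rates in set 3, 104 macrophages over 70 leukocytes without C1q, with exact binomial 95% intervals and counts under 3 UMIs set to 3, so that *Pf4*, *Cxcl1*, *C5ar1* and *Lck*, with 0, 1, 2 or 1 UMIs in the lower group, are drawn against that floor. *Apoe* and *Cxcl2* lie to the right at 4.45 and 5.53, *Il1b*, *Lyz2* and *Tyrobp* lie between 0.32 and 0.50, and *Cst3* lies to the left at -2.04. *Tyrobp* and *Ptprc* were used to choose both groups, so their ratios support nothing.

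Outside the lists, the genes with the largest ratio over other cells that passed in each set where tested included leukocyte receptors. *Spic* led the list, followed by *Lrrc25*, a leucine-rich repeat protein of myeloid cells at 153, 65.2 and 120 CPM in sets 1, 2 and 3. *Slamf7*, *Slamf9* and *Cd84*, of the SLAM family of leukocyte adhesion receptors, stood at 133, 79.8 and 33.3 CPM in set 3. *Tbxas1*, the thromboxane synthase, stood at 63.8, 48.9 and 36.6 CPM, and *Fcna*, a ficolin that starts the lectin pathway of complement, at 38.8, 0 and 33.3. *AI607873*, an interferon-inducible gene of the Ifi200 cluster, stood at 186, 196 and 243 CPM and was thus level across sets. *Cyp4f18*, *Igsf6*, *Snx20* and *Il21r* completed the 12, at 36.6, 59.9, 46.6 and 36.6 CPM in set 3.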

How the data were processed

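Single cells of 3 mouse tissues were profiled with 10x Genomics chemistry (v3 in the labels, a v2 kit in the methods), and the authors aligned reads with Cell Ranger 3.1.0 to mm10 with added transgene sequences and, by the methods, removed multiplets. No doublet caller was run and no cell was removed here. The deposited table holds the natural log of 1 plus UMIs per 10000 UMIs of the cell, as made by the authors, and its cell number differs from the total that the study states for these tissues. The number of cells of set 1 equals the one stated for the E18.5 tissue and the others differ, and no set was assigned from this. UMIs were recovered from each cell's smallest steps: all 11120293 values above 0 came out whole within 0.05. Recovered UMIs were used throughout.

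Of 9784 gene rows 9781 were used, leaving out 1 row cut short and 2 sharing a name. The rows cover 49.4% to 52.7% of UMIs by set, and genes without a row were not analysed here. A total of 0 columns of per-sample values went unused. No label ties a barcode ending to an age, so the 3 endings stayed unassigned, and cells are not replicates.

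Rates are summed UMIs per 1000000, with exact Poisson intervals. Ratios have exact binomial intervals and shares Clopper-Pearson intervals, all at 95% and for counting error only. Genes with at least 10 UMIs over both groups were tested against a 4-fold limit with at least 5 UMIs in the higher group. Lower calls against other cells, but not in the other comparisons, also needed 12 expected UMIs in macrophages. Counts under 3 were set to 3. Cells were also thinned to 900 UMIs, which left out 3 macrophages of set 3. Scripts were tested on simulated data.

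The members, gene lists and tests were chosen with earlier results of these data known. Named genes were the rule genes, the 6 with the highest rates of each list with at least 20 UMIs in macrophages, the 12 outside the lists with the largest ratio in set 3, and the 6 most different each way between sets. Others, among them *Crybb1*, *P2ry12* and the single cells described, were chosen after their values were seen. Analyses used Python 3.11.15, numpy 2.4.6, scipy 1.17.1 and matplotlib 3.10.9. Results on a few withheld genes are not reported here.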

Additional observations from a re-analysis of the deposited data

Results flagged for a closer look

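A pair of genes lay above the other cells in 1 set of macrophages and below them in another, and what lies behind this was not tested. *Rgs5*, a pericyte gene, had a log2 ratio of macrophages over other cells of 2.22 in set 3 and -3.11 in set 1. It stood at 170 CPM in set 3, from 51 UMIs in 5 macrophages, all outside the 81 low-marker ones, and had 0 UMIs in set 1. *Fgfbp1* had a ratio of 1.68 in set 2, from 19 UMIs in 5 macrophages, of which the low-marker ones held 2 UMIs, and -2.55 in set 1, again from 0 UMIs raised to the floor of 3.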

How the results depend on the processing

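Of 662 alternative values for 94 results, 16 log2 ratios changed sign, all of them between sets. For 12 of these the interval of the reported ratio held 0, and the other 4 were as follows. *Ctss* of set 1 over set 3 became -0.12 and *Apoe* -0.03 with the mean of single-cell rates, and without macrophages rich in other-type markers *Apoe* of set 1 over set 3 became -0.05 and *Ctss* of set 2 over set 3 became 0.03. The cause was not tested. Leaving out those macrophages, an alternative chosen after seeing the data, also put the share in set 2 at 0.15% and in set 3 at 0.96%, and the genes 4-fold apart at 29 between sets 2 and 3 (from 91) and 244 between sets 1 and 3 (from 404). Thinning to 900 UMIs gave a share of 0.991% in set 3. Counts followed the fold limit by construction. At 2-fold they were 776, 218 and 519 genes higher than in other cells in sets 1, 2 and 3, 526 and 725 higher than in leukocytes without C1q in set 3 and in all sets, and 430 and 1521 between sets 2 and 3 and sets 1 and 3. At 8-fold they were 47 and 159 in sets 2 and 3, 30 and 20 against leukocytes, and 13 and 104 between sets. A floor of 1 UMI gave 300 and 451 against leukocytes and 156 between sets 2 and 3, and a minimum of 30 UMIs gave 28 and 196 between sets. No paired analysis was possible because all groups came as a single library each. The small sum of UMIs limits set 2 most, where 16 macrophages held 61319.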
